A study of Mus musculus with 12 samples.

Results

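The genes described here encode the proteins of the cytosolic ribosome. They were taken from the deposited mouse liver table as the protein-coding rows whose symbols have the form of a ribosomal protein gene (Rpl or Rps with a number and at most a trailing a or x) together with Rplp0, Rplp1, Rplp2 and Rpsa. This gave 76 of the 56748 genes listed, 46 of the large subunit and 30 of the small subunit. Poly(A)-selected liver RNA was sequenced from 129/Sv-Cyp2e1tm1Gonz/J mice (KO), which carry a targeted allele of the cytochrome P450 gene Cyp2e1, and from 129S1/SvImJ mice (WT). The 4 groups were female KO, female WT, male KO and male WT, each with 3 libraries, and all mice were 16 weeks old, co-housed and fed normal chow. KO and WT are separate inbred 129 lines, so genotype and line cannot be told apart, and in bulk liver fewer cells of a type and less RNA per cell cannot be told apart either.

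Total counts ran from 15167730 to 25082532 per library. CPM are counts scaled by library size and by a TMM factor of each library, unless given as CPM of total counts. Cyp2e1 averaged 277 ± 46.2 CPM in female KO livers and 6546 ± 464 CPM in female WT livers (SD, n = 3 each). In males it averaged 370 ± 45.6 CPM in KO livers and 10851 ± 568 CPM in WT livers (SD, n = 3 each). The hepatocyte markers (10 of 10 detected) summed to 91771 to 142073 CPM of total counts in KO livers and to 77512 to 129805 CPM in WT livers.

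Ribosomal proteins assemble with ribosomal RNA into a small subunit, which reads the mRNA, and a large subunit, which joins the amino acids. Cells make them in near-equal numbers, and in vertebrates much of that balance is set at translation: most of these mRNAs begin with a C followed by a run of pyrimidines, the terminal oligopyrimidine (TOP) tract, which places them under the kinase complex mTORC1. The mRNAs are short, abundant and stable, and several of them serve as reference transcripts in quantitative PCR. In liver the family accounts for a sizeable part of the mRNA and follows feeding and growth.

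The TOP tract lies at the first base of the transcript and is shown here because it is the sequence the family is best known for. The RefSeq promoter table (build GRCm38.p6) held a start site for 56 of the 76 genes. At the annotated start, a C followed by at least 4 pyrimidines stood in 13 of those 56 genes (23.2%), against 800 of 26969 other genes in the table (2.97%). Annotated starts can lie some bases away from the start in use, and from 10 bases before to 15 after it the same letters, on the gene's own strand, stood in 34 of the 56 (60.7%) and in 34.3% of the other genes. The windows below run from 10 bases before the annotated start to the 20th base from it, 5′ to 3′, with the pyrimidine run that begins at the start in capitals. Rplp2 (chr7:141447641-141447670, plus strand), Rps6 (chr4:86857348-86857377, minus strand) and Rps18 (chr17:33955646-33955675, minus strand) have such a run. Rplp0 (chr5:115559457-115559486, plus strand), Rpl41 (chr10:128549149-128549178, minus strand), Rps12 (chr10:23787190-23787219, minus strand) and Rpl4 (chr9:64173377-64173406, plus strand) do not. Rps12 and Rps18 had the largest declines in female KO livers, and Rpl4 was not called.
Rplp2: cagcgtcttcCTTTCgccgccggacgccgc
Rps6: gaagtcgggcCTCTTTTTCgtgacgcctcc
Rps18: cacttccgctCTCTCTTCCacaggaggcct
Rplp0: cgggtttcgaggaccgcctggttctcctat
Rpl41: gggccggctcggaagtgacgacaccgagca
Rps12: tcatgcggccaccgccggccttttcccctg
Rpl4: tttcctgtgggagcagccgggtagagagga
The 13 genes with the tract at the annotated start had a median female fold change (log2, KO over WT) of -1.38 and the 43 without it -1.37, and in males the medians were 0.02 in both sets. Some of the 43 may carry the tract at the start in use, so these medians cannot show whether it matters.

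Of the 76 genes 75 had enough counts to be tested. Rpl29, a large subunit protein, had 2 to 9 counts in each of the 12 libraries and did not pass. Mean levels of the 70 genes at 20 CPM or more ran from 41.1 to 807 CPM, and per kilobase of the gene length listed in the table from 12.1 to 1318 CPM. On that per-kilobase scale the highest were Rplp1 (1318), an acidic protein of the stalk that recruits translation factors, Rpl36 (877), Rps15 (611), a protein of the small subunit head, and Rpl41 (540), among the smallest proteins known. The lowest tested were Rps10 (0.456) and Rpl24 (0.884). Mammalian ribosomal protein genes have many processed pseudogenes of nearly the same sequence, which can share reads with them. The table held 322 rows named as their pseudogenes, 180 of them with counts. Rps10-ps2 took 22235 counts over the 12 libraries, while Rps10 itself took 238, and Rpl34-ps1 took 52019 counts beside 1007 for Rpl34. For 5 genes (Rps10, Rpl34, Rpl17, Rpl29 and Rpl21) more than 50% of the joint counts lay in such rows. How reads with several matches were counted is not stated, so the levels of these 5 genes are uncertain. The pseudogene rows together took 0.113 ± 0.0189% of counts in female KO livers and 0.275 ± 0.0470% in female WT livers (SD, n = 3 each). In males they took 0.131 to 0.315% in KO livers and 0.127 to 0.255% in WT livers. In females the KO level lay below the WT level, as it did for the genes themselves.

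Female KO livers had less mRNA of nearly the whole family than female WT livers. Of the 75 genes 69 fell and 0 rose, where 18.8% of all genes tested fell and 17.7% rose (36.5% called in all). The median fold change over the 75 genes was -1.35 on the log2 scale, and over all genes tested it was 0.05. These values and those of single genes that follow are without any correction for gene length: with each library's length slope as a covariate 0 of the 75 were called (median -0.05), and with the spliced length trend removed 45 fell (median -0.68). The family took 1.61, 1.16 and 1.31% of all counts in the 3 female KO libraries (1.36 ± 0.23%), against 2.48, 2.94 and 3.40% in the 3 female WT libraries (2.94 ± 0.46%; SD, n = 3 each). All 3 female KO shares lay below all 3 female WT shares. Gene by gene, the highest KO library stayed below the lowest WT library in 72 of 75 genes, where 27.1% of all genes tested did so. Both subunits took part: 41 of 45 large subunit genes fell (median -1.28), as did 28 of 30 small subunit genes (median -1.44). Of 88 pseudogene rows with enough counts 64 fell and 0 rose, with a median of -1.35. The direction of the family's median held with each library left out, but the number of genes called did not: it was 0 without female KO replicate 2 and 0 without female WT replicate 2. In those fits 67 and 69 of the 75 genes had an unadjusted p under 0.05 by edgeR, as did 5433 of 14272 and 5349 of 14416 genes tested. The smallest adjusted p of edgeR among members was 0.061 and 0.0554, and over all genes 0.028% and 0.0347% were called.

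**Figure D1:**
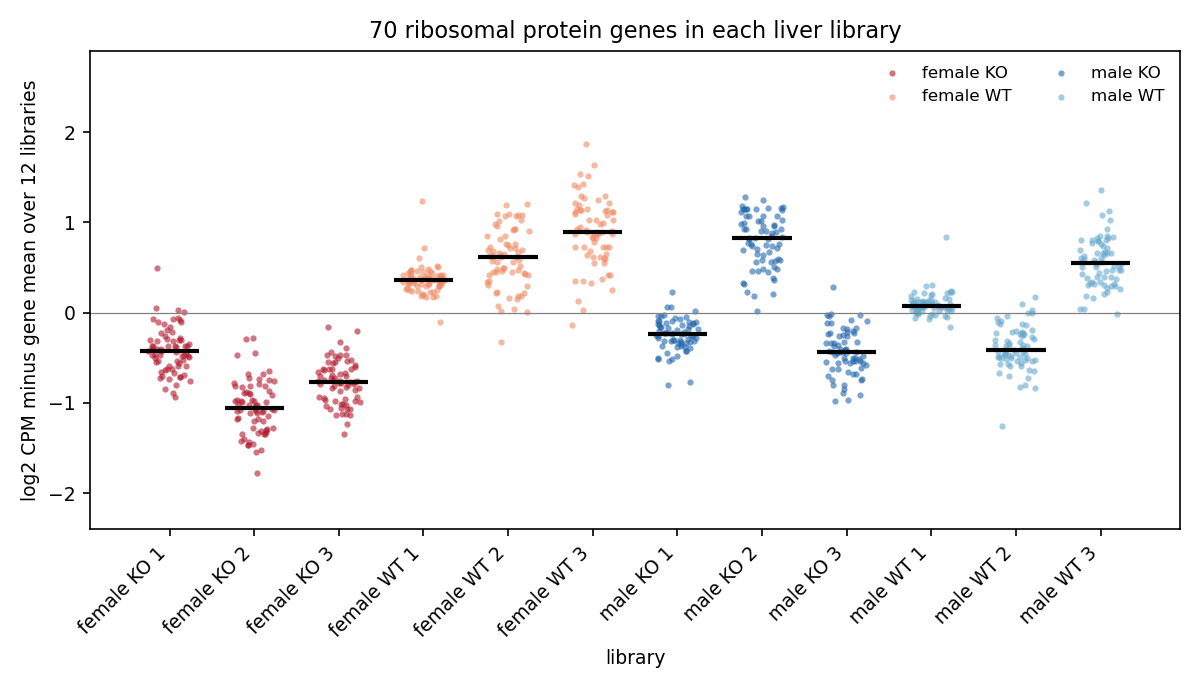
Level of the 70 ribosomal protein genes with a mean of at least 20 CPM in each of the 12 liver libraries, as log2 CPM minus the gene's mean over all libraries (points, 1 per gene; bars, medians of these genes). The medians of the 3 female KO libraries lie below 0 and those of the 3 female WT libraries above it, while those of male KO replicate 2 and male WT replicate 3 are the highest among males.

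The stalk of the large subunit, which binds elongation factors, is built from Rplp0, Rplp1 and Rplp2 on a base that includes Rpl12. Rplp0 (ENSMUSG00000067274, chromosome 5, 115697526 to 115701786, mm39) had 202, 146 and 174 CPM in female KO livers, against 365, 457 and 456 CPM in female WT livers. The groups did not overlap, and Rplp0 fell by 1.29 ± 0.32 on the log2 scale (edgeR adjusted p = 0.0145). Rplp1 (ENSMUSG00000007892, chromosome 9, 61820566 to 61821824) had 587, 342 and 409 CPM in female KO livers, against 811, 721 and 923 CPM in female WT livers (-0.88 ± 0.24, edgeR adjusted p = 0.0174). Rplp2 fell by 0.99 ± 0.29 and Rpl12 by 1.71 ± 0.41. Each of the 4 stalk genes was therefore lower, with Rpl12 the most so.

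Rpl5 and Rpl11 form, with the smallest RNA of the large subunit, a particle that also holds back the p53 inhibitor Mdm2 when ribosome assembly fails. Rpl5 (ENSMUSG00000058558, chromosome 5, 108048368 to 108056871) had 235, 167 and 209 CPM in female KO livers, against 540, 865 and 892 CPM in female WT livers (-1.91 ± 0.47, edgeR adjusted p = 0.0146). Rpl11 (ENSMUSG00000059291, chromosome 4, 135755576 to 135780739) had 206, 144 and 178 CPM in female KO livers, against 365, 449 and 476 CPM in female WT livers (-1.29 ± 0.33, edgeR adjusted p = 0.0149). Neither gene overlapped between the groups. Among the genes that line or flank the tunnel through which the new protein leaves, 5 of 6 fell, where 18.8% of all genes tested did. In people, loss of 1 copy of some of these genes causes Diamond-Blackfan anaemia. Of 10 such genes 9 fell in female KO livers, against the same share of all genes, and Rps10 (-0.84 ± 0.44, edgeR adjusted p = 0.141) did not pass.

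In the small subunit, Rps6, the classic substrate of the S6 kinases downstream of mTORC1, had 319, 226 and 266 CPM in female KO livers, against 477, 590 and 752 CPM in female WT livers (-1.16 ± 0.28, edgeR adjusted p = 0.0145). Rpsa, also known as the laminin receptor, had 574, 355 and 426 CPM in female KO livers, against 979, 1020 and 1231 CPM in female WT livers (-1.25 ± 0.33, edgeR adjusted p = 0.016). Rps27a, made as a fusion with ubiquitin, spread most over the 12 libraries among genes at 20 CPM or more, from 42.5 to 530 CPM. It had 205, 42.5 and 57.3 CPM in female KO livers, against 344, 198 and 530 CPM in female WT livers. It fell (-1.82 ± 0.60, edgeR adjusted p = 0.0323), although its groups overlapped.

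The largest declines were those of Rps12, Rps18, Rpl13a and Rpl9. Rps12, a small subunit protein (ENSMUSG00000061983, chromosome 10, 23661081 to 23663173), had 124, 65.4 and 82.2 CPM in female KO livers, against 295, 379 and 560 CPM in female WT livers (-2.18 ± 0.51, edgeR adjusted p = 0.0142). Reads of Rps12 may be shared with its pseudogenes, which held 31.5% of the joint counts. Rps18 (ENSMUSG00000008668, chromosome 17, 34170973 to 34174975), of the small subunit head, had 312, 221 and 269 CPM in female KO livers, against 797, 1186 and 1355 CPM in female WT livers (-2.06 ± 0.46, edgeR adjusted p = 0.014). Rpl13a, known outside the ribosome for silencing inflammatory mRNAs, had low counts in the table (mean 15.8 CPM) and changed by -2.05 ± 0.50, and Rpl9 by -2.03 ± 0.53. Rpl41 fell by 2.01 ± 0.59. Of the members that commonly serve as reference transcripts in quantitative PCR all 5 of 5 fell, where 18.8% of all genes tested did. Their median was -1.93, and Rpl32 was among them (-1.93 ± 0.44).

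The 6 genes that did not pass in females were Rpl4, Rpl30, Rps4x, Rps10, Rpl24 and Rpl34. Rpl4, a large subunit protein that reaches into the exit tunnel (ENSMUSG00000032399, chromosome 9, 64080657 to 64085948), was abundant and stood apart from the family. It had 490, 439 and 477 CPM in female KO livers, against 498, 426 and 484 CPM in female WT livers, with a fold change of -0.00 ± 0.15 (log2, edgeR adjusted p = 0.991). In males Rpl4 had 627, 624 and 649 CPM in KO livers, against 556, 602 and 607 CPM in WT livers (0.11 ± 0.15, edgeR adjusted p = 1). Rps4x (ENSMUSG00000031320, X chromosome, 101228547 to 101233000) had 230, 194 and 214 CPM in female KO livers, against 309, 271 and 293 CPM in female WT livers. Those groups did not overlap, and the change of -0.45 ± 0.17 did not pass (edgeR adjusted p = 0.052). The other X-linked genes fell, Rpl10 by 0.997 ± 0.24, Rpl39 by 1.53 ± 0.32 and Rpl36a by 1.35 ± 0.31. Rpl30, Rps10, Rpl24 and Rpl34 had low counts in the table, with means of 0.911 to 7.94 CPM. Rpl30, a large subunit protein, had 14.5, 8.01 and 10.3 CPM in female KO livers, against 17.2, 10.5 and 4.05 CPM in female WT livers (0.04 ± 0.59, edgeR adjusted p = 0.959). Its groups overlapped, and it spread more between female WT libraries than between female KO libraries. The 69 genes that fell ran from -2.18 to -0.57, and the smallest of these declines was that of Rpl28 (-0.57 ± 0.21, edgeR adjusted p = 0.0467).

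**Figure D2:**
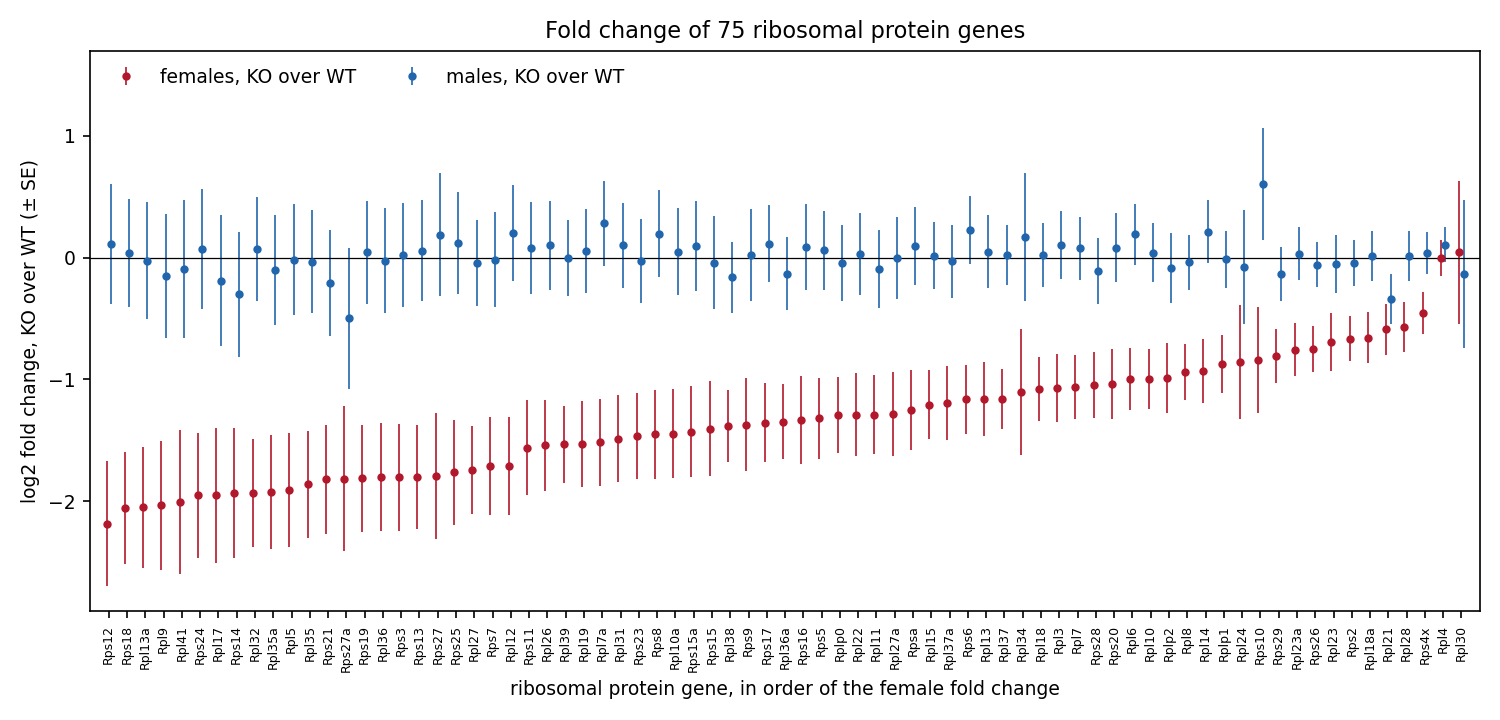
Log2 fold change, KO over WT, of the 75 tested ribosomal protein genes in females (red) and males (blue), with standard errors from edgeR's fit, in order of the female value. Female values run from -2.18 (Rps12) to 0.04 (Rpl30), and male values lie on both sides of 0.

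Male KO and male WT livers were not shown to differ in any of these genes. None of the 75 was called by edgeR, where 0.0571% of all genes tested were. An unadjusted p under 0.05 was found for 0 of the 75, and for 678 of the 14003 genes tested. DESeq2 also called 0 members, with 0.154% of all genes called. The median fold change was 0.02, with 42 genes above and 33 below 0. The family took 1.78, 3.29 and 1.61% of counts in the male KO libraries (2.23 ± 0.93%), against 2.13, 1.57 and 2.79% in the male WT libraries (2.16 ± 0.61%; SD, n = 3 each), so that male KO replicate 2 was above every male WT library and the other 2 male KO libraries were within their range. Without male KO replicate 2 the male median was -0.49, and without male WT replicate 3 it was 0.31. Rps6 had 392, 757 and 361 CPM in male KO livers, against 458, 345 and 488 CPM in male WT livers (0.23 ± 0.28). Rps27a (-0.50 ± 0.58), Rpl21 (-0.34 ± 0.21), Rps14 (-0.30 ± 0.51) and Rps21 (-0.21 ± 0.43) had the lowest male fold changes. Rps10 (0.61 ± 0.46), Rpl7a (0.28 ± 0.35), Rps6 and Rpl14 (0.21 ± 0.26) had the highest. Each of these 8 had an edgeR adjusted p of 1.

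The difference between the male and the female KO effect was tested itself. No member passed (0 of 75, edgeR adjusted p from 0.204 upward), and 0% of all genes tested passed. Before adjustment 66 of the 75 genes had a p under 0.05, as did 3145 of the 14003 genes tested. DESeq2 called 1 member, Rpl7a (0.975% of all genes), and edgeR without the count filter called 57 of 76 (5.67% of all genes). Averaged over both sexes, 8 of 75 genes fell and 0 rose, where 7.29% of all genes fell and 7.78% rose (15.1% called). The 4 of smallest adjusted p were Rpl38 (-0.77), Rpl27 (-0.89), Rpl36a (-0.74) and Rpl39 (-0.77). This count was 69 without male KO replicate 2 (38.7% of all genes called), 61 without male WT replicate 2 (31.2%), and 1 or 0 without any 1 of the other 10 libraries. DESeq2 called 49 members (24.1% of all genes) and edgeR without the count filter 61 (15.2%). With the length trends described further on removed it was 4 (12.7%) for listed length and 1 (11.8%) for spliced length. It was 0 with the slope of listed length (0.214%) or of spliced length (0.179%) as a covariate, and 0 with the replicate number as a block (0.164%).

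The sexes were also set against each other within each line. In WT mice none of the 75 genes was called between males and females, where 4.49% of all genes were. Here 6 of the 75 had an unadjusted p under 0.05 by edgeR, as did 3076 of the 14003 genes tested. DESeq2 called 0 members (7.03% of all genes), edgeR without the count filter called 7 (6.64%), and the median was -0.52 (male over female). In KO mice Rpl12 was called, higher in males (1.54 ± 0.40, edgeR adjusted p = 0.0423), where 5.4% of all genes were called and 2.95% were higher, and the median was 0.89. Rpl12 had 248, 641 and 209 CPM in male KO livers, against 143, 106 and 129 CPM in female KO livers, and these groups did not overlap. The call of Rpl12 rested on the processing: the count of members was 0 without any 1 of 8 libraries and 22 without male KO replicate 3. In that last fit 613 of 14361 genes tested were higher in males. By DESeq2 27 members were called in KO mice, all higher in males (8.68% of all genes), and without the count filter 52 (6.62%). With only the KO groups in the fit 0 members were called (3.99%), as with the replicate number as a block (3.62%). With listed length, length and GC content, or spliced length removed, 4 (6.19%), 8 (6.98%) and 3 (6.42%) were called, and 2 with either slope as a covariate (8.21% for listed and 7.91% for spliced length). These comparisons use the same female libraries as the KO comparison in females. The 4 X-linked genes were not called between the sexes in either line.

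The family moved as a block from library to library. Over the 70 genes at 20 CPM or more, a single principal component held 95.0% of the variance over the 12 libraries. The correlation of a gene with the median of all other members had a median of 0.98 over the 75 genes and was above 0.9 in 63 of them. The points of each correlation are the 12 libraries, which share group and depth. The lowest were Rpl30 (-0.12), Rpl4 (0.092), Rps10 (0.49) and Rpl21 (0.69). Others not above 0.9 included Rpl24 (0.75), Rpl7a (0.80), Rps27a (0.82) and Rps2 (0.83). After the family median was taken away, the remaining spread of a gene over libraries had a median SD of 0.23 log2 units, where the spread before was 0.67.

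The libraries also differed in how expression moved with gene length, measured over 13928 genes outside the family as the slope of a library's log2 CPM deviation on log2 gene length. The slope was 0.15 ± 0.08 log2 units per doubling of length in female KO livers and -0.15 ± 0.05 in female WT livers, and 0.02 ± 0.15 in male KO livers and -0.01 ± 0.10 in male WT livers (SD, n = 3 each). The female groups did not overlap (two-sided p = 0.1 by exact permutation, which is the lowest p for groups of 3), while those of males overlapped (two-sided p = 0.8 by exact permutation). The median level of the ribosomal protein genes followed this slope in both sexes and both lines. Over the 12 libraries Pearson's r was -0.98 and Spearman's rho -0.98. Over the 6 male libraries, in which the slopes of KO and WT overlapped, r was -0.99 and rho -1. Why the level and the slope moved together was not tested. Without the 2 libraries farthest from the median slope, female KO replicate 2 and female WT replicate 2, r was -0.99. No p is given, since the genes were chosen with earlier results known. Male KO replicate 2, with a slope of -0.15, took 3.29% of counts in the family, close to the 3.40% of female WT replicate 3 at -0.17. Male WT replicate 2, at 0.09, took 1.57%, close to the 1.61% of female KO replicate 1 at 0.06. Single genes did the same: 59 of 75 had a correlation with the slope below -0.9, while Rpl4 had 0.028 and Rpl30 -0.0028. The share of other genes, or of other short genes, below -0.9 was not computed. This count therefore cannot be called particular to the family.

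**Figure D3:**
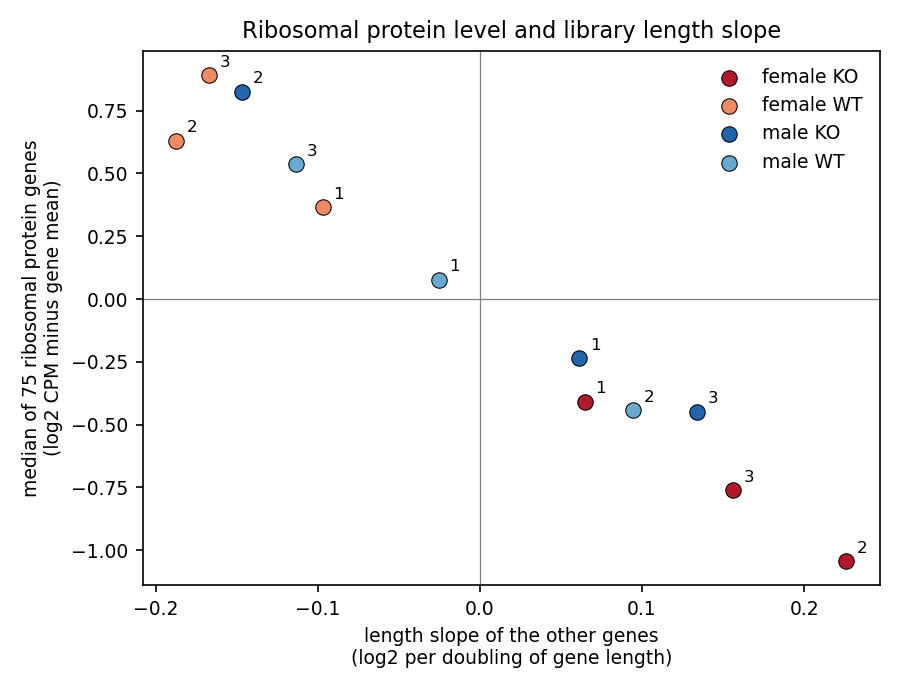
Each point is 1 library (numbers are replicates): the length slope of all tested genes outside the family against the median of the 75 ribosomal protein genes. The 12 libraries fall along 1 descending line (Pearson's r = -0.98), on which the male KO and male WT libraries interleave while the female KO and female WT libraries lie on opposite sides of a slope of 0.

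The members are short. Their listed gene length had a median of 1830 bases, against 4462 for other tested protein-coding genes. That column covers more than the mature message: for 1 spliced transcript per gene in GENCODE vM21 the members' median was 886 bases, against 2993 for the others. In females the fold change of other protein-coding genes climbed with listed length, from a median of -1.13 at 500 to 1000 bases to 0.43 at 5000 bases and more. The members' median was below that of other genes in each of the 7 length bins. From 1000 to 1500 bases the 13 members had a median of -1.53 and the 523 other genes -0.68, and from 3000 to 5000 bases the 13 members had -1.25 and the 3486 others 0.06. In spliced length the gap was smaller for the shortest messages, -1.36 for 9 members and -1.27 for 52 others under 500 bases, and -1.54 for 14 members and -1.16 for 152 others from 500 to 700 bases. From 1000 to 1500 spliced bases it was -1.07 for 17 members and -0.56 for 1139 others. Within the family length did not order the response: across the 75 genes r between the female fold change and log2 gene length was -0.04 (0.17 for spliced length), against 0.43 (0.51) across the other protein-coding genes. Genes are not independent replicates, so these are descriptions. Rps24, listed at 6256 bases, fell by 1.95 ± 0.51, Rps15a, the longest at 6270, by 1.43 ± 0.38, and Rpl36, the shortest at 383, by 1.80 ± 0.44.

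**Figure D4:**
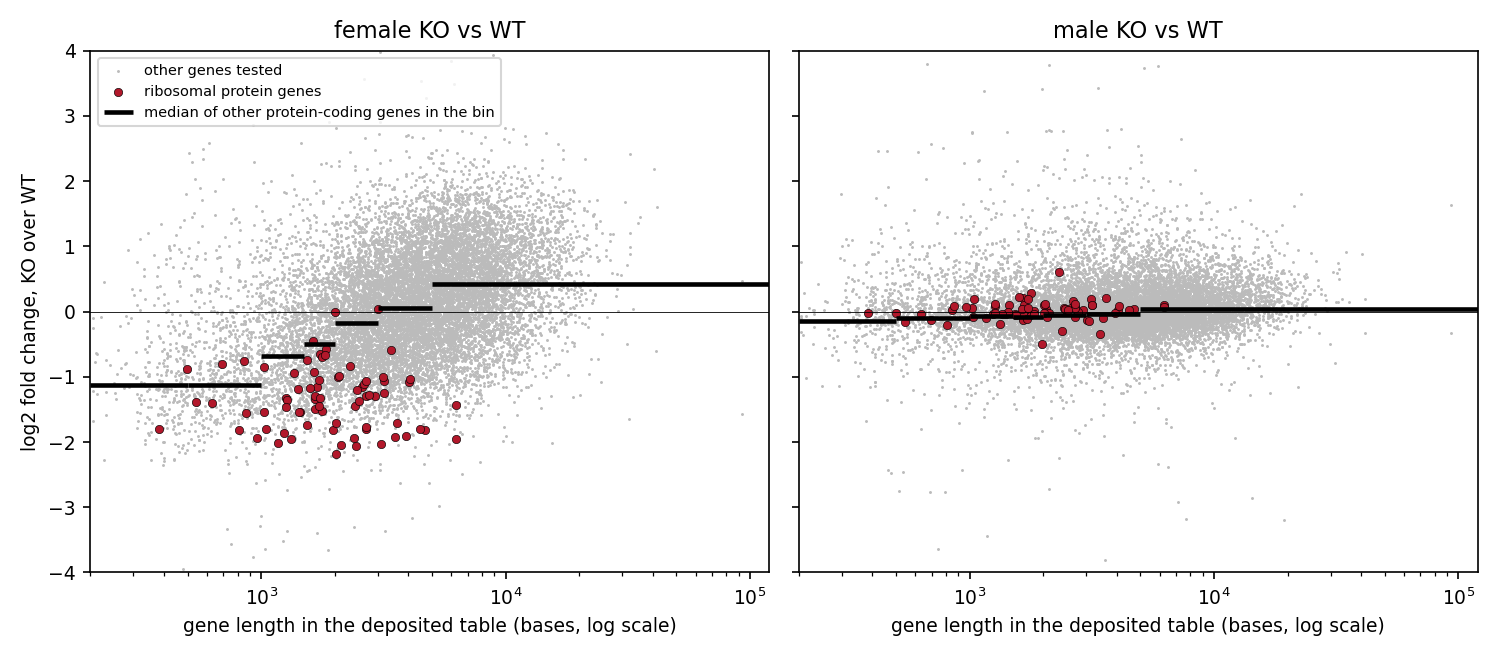
Log2 fold change, KO over WT, against the gene length listed in the table (log axis) for females and males. Grey points are other tested genes, black lines the median of other protein-coding genes in each length bin, and red points the ribosomal protein genes, which in females mostly lie below the lines and in males lie near 0.

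What remained of the female difference depended on how length was treated. With the length trend of each library removed, 59 of 75 members fell (median -1.02), where 17.9% of all genes fell and 30.8% were called. With a trend on length and GC content removed 62 fell (median -1.13), where 15.5% of all genes fell and 24.5% were called. With a trend on spliced length removed, an alternative chosen after seeing the data, 45 fell (median -0.68), where 16.3% of all genes fell and 28% were called. With the replicate number as a block 64 fell (24% of all genes called). With each library's length slope as a covariate 0 members were called, the median was -0.05, and 0.0643% of all genes were called. In that fit 0 members had an unadjusted p under 0.05, as against 1407 of the 14003 genes tested. With the slope of spliced length in its place 0 were called as well (median -0.08, 0.0714% of all genes). Slope and genotype separate the same female libraries, so the 2 cannot be told apart in females. In males 0 members were called in each of these fits, and the medians were 0.04 with the length trend removed and 0.09 with the slope as a covariate.

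**Figure D5:**
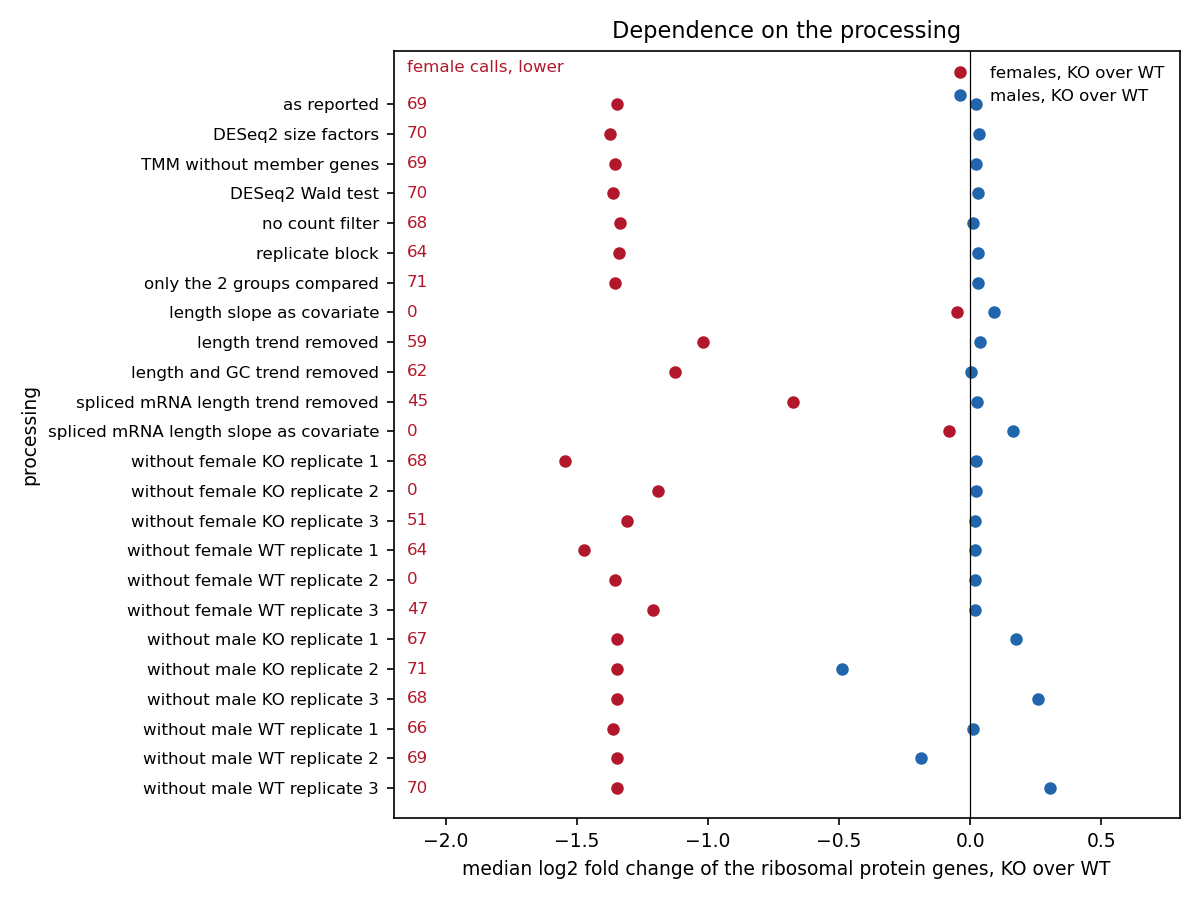
Median log2 fold change of the ribosomal protein genes, KO over WT, in females (red) and males (blue) under each processing alternative. The numbers at the left are the members called lower in females. The female count is 0 in 4 settings: with either length slope as a covariate, and without female KO or female WT replicate 2.

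Other genes of the translation machinery were counted in the same female fit, without correction for length. In that fit 18.8% of all genes tested fell and 17.7% rose. Of 7 tested ribosomal protein paralogs and fusions outside the name rule all 7 fell in females (median -1.56), with Rps27l (-1.88 ± 0.42) and Rpl7l1 (-1.07 ± 0.24) of smallest adjusted p. Among them are Fau (-1.56), which encodes a small subunit protein fused to a ubiquitin-like one, and the small subunit scaffold Rack1 (-1.52). Mitochondrial ribosomal proteins, which belong to a separate ribosome, fell in 62 of 77 genes and rose in 0 (median -1.04), among them Mrpl20 (-1.64 ± 0.31) and Mrpl15 (-1.43 ± 0.29). In males the median of that list was -0.10 with 0 called.

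Of the 21 genes of the elongation and TOP-class list 14 fell and 4 rose in female KO livers, where 18.8% of all genes fell and 17.7% rose, so the number that rose was near the share of all genes. Eif3e (-1.16 ± 0.26) and Eif3h (-1.24 ± 0.29), subunits of initiation factor eIF3, fell. Eef1a1, which carries aminoacyl-tRNA to the ribosome, fell to 3953 CPM in female KO livers, against 6882 CPM in female WT livers (-0.80 ± 0.25, edgeR adjusted p = 0.0268). Eef2, the translocation factor, rose to 1678 CPM in female KO livers, against 865 CPM in female WT livers (0.96 ± 0.29, edgeR adjusted p = 0.0249). The poly(A)-binding protein gene Pabpc1 (1.00 ± 0.32), Eif4b (1.03 ± 0.25) and Hnrnpa1 (0.63 ± 0.20) were the other 3 that rose, and these 4 and Eef1a1 were chosen after their values were seen.

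The lists that follow are read against the same shares of all genes, 18.8% lower and 17.7% higher. Initiation factors fell in 11 of 27 and rose in 3, with Eif2s1 (-1.36 ± 0.25) and Eif3i (-1.31 ± 0.30) lower. Ribosome biogenesis factors fell in 10 of 39 and rose in 3 (median -0.06), near the share of all genes called, with the export adaptor Nmd3 (-0.92 ± 0.18) and the nucleolar GTPase Gnl3 (-0.86 ± 0.18) lower. Of 24 genes of mTORC1 signalling and its LARP effectors 6 rose and 8 fell, and the median was -0.04, with 12 genes above and 12 below 0. Among those called, the mTORC1 inhibitor Tsc1 was higher (1.45 ± 0.27) and the activator Rheb lower (-0.84 ± 0.20). This pair does not stand for the list, and mTORC1 activity was not tested. Of 13 snoRNA host lncRNAs 2 fell, Zfas1 (-1.53 ± 0.51) and Snhg8 (-1.05 ± 0.37), which is no more than the share of all genes. In males 0 genes of any of these lists were called.

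Some marker sums of liver cells differed between the female groups, as shares of total counts without the TMM factors. Summed over 11 Kupffer cell and macrophage markers, libraries held 262 to 325 CPM of total counts in female KO livers and 165 to 241 CPM in female WT livers. The 8 sinusoidal endothelial markers held 227 to 330 CPM in female KO livers and 148 to 178 CPM in female WT livers, and the 10 hepatocyte markers 133159 to 142073 CPM in female KO livers and 96666 to 129805 CPM in female WT livers. Lymphocyte and neutrophil, erythroid and stellate sums overlapped between the female groups. Cholangiocyte sums did not, with 25.8 to 37.1 CPM in female KO livers and 38.7 to 48.3 CPM in female WT livers. In the fit 4 of 11 Kupffer cell and macrophage markers rose and 0 fell (median 0.49). Of 8 endothelial markers 4 rose and 0 fell (median 0.65). Of 10 hepatocyte markers 1 rose and 0 fell (median 0.14), and of 5 cholangiocyte markers 1 rose and 2 fell. Of all genes tested 17.7% rose and 18.8% fell. No marker gene was at 0 in all libraries. Their part in the ribosomal protein result was not tested.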

How the data were processed

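The authors deposited 1 table of raw read counts per gene for 12 liver libraries, checked here to be whole numbers with unequal totals, with Ensembl identifiers, mm39 positions and gene length. HISAT2 2.0.5, DESeq2 and mm39 are named without roles, per the submitters' processing notes. Neither the counting program nor its use of strand is given in the sources used here. Columns were matched to samples by library number. Genes were kept by edgeR's filterByExpr on the 4 groups (14003 genes, 99.9% of counts) and fitted with edgeR 4.0.16 in R 4.3.3: TMM scaling, 1 mean per group, 8 residual degrees of freedom, quasi-likelihood F test, Benjamini-Hochberg adjustment over all genes tested, called under 0.05. Standard errors are the log2 fold change over the root of F, and the biological coefficient of variation was 25.9%. Log2 CPM used a prior count of 2. Alternatives were DESeq2 1.42.0, other scaling, no count filter, a replicate block, fits of 2 groups, each library left out, and length trends or slopes, of which the 2 on spliced length were added after seeing the data. Spliced length and GC content came from 1 principal transcript per gene of GENCODE vM21, matched by Ensembl identifier (98.6% of tested genes).

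The members, lists and tests were chosen with earlier results of these data known. Named genes are fixed members of each functional class, the 4 highest and 4 lowest fold changes in each sex, the per-kilobase extremes, the longest and shortest genes, those that failed the filter, up to 4 called members of the other contrasts, and the 2 called genes of smallest adjusted p from each other list. Within groups, every pair of libraries differed beyond sampling noise, with a chi-square of 16.1 to 150.0 per degree of freedom. The labels neither say what replicate numbers share across groups nor that libraries are separate animals, so p-values measure the spread between these libraries, which may be technical. Low counts limit the 5 tested genes under 20 CPM, and for Rps10 and Rpl34 most of the joint counts lay in pseudogene rows.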

Additional observations from a re-analysis of the deposited data

How the results depend on the processing

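The female median was -1.55 to -1.19 when 1 library was left out, and the male median -0.49 to 0.31. With a length slope as covariate no female decline was detected: the median was near that of all genes, and the smallest adjusted p of edgeR among members was 0.57. An unadjusted p under 0.05 was found for 0 members. Of the 14003 genes tested, 1407 had one with the slope of listed length and 1311 with that of spliced length. The counts of members called that follow are given with the percentage of all genes called in the same fit. In females they were 0 with the length slope as covariate (median -0.051, 0.0643%) and 45 with the spliced length trend removed (median -0.68, 28%). With the spliced length slope as covariate the female count was 0 (median -0.081, 0.0714%). With 1 library left out the female counts ran from 0 to 71. They were 0 without female KO replicate 2 (0.028%) or female WT replicate 2 (0.0347%). The 71 came without male KO replicate 2, where 3011 of 14439 genes tested fell. For the mean of both sexes (8 as reported, 15.1%) the counts were 49 by DESeq2 (24.1%) and 61 without the count filter (15.2%). They were 0 with the slope of listed (0.214%) or spliced length (0.179%) as covariate. With the length trend removed the count was 4 (12.7%), and with the spliced length trend removed 1 (11.8%). With 1 library left out they ran from 0 to 69, with 38.7% of all genes called at 69. For the difference between the sexes (0 as reported, 0%) they were 1 by DESeq2 (0.975%) and 57 without the count filter (5.67%). Between males and females in WT mice (0 as reported, 4.49%) they were 7 without the filter (6.64%) and 0 to 1 with 1 library left out. The 1 came without male WT replicate 3, where 335 of 14454 genes tested were lower in males. In KO mice (1 as reported, 5.4%) they were 27 by DESeq2 (8.68%) and 52 without the filter (51 higher and 1 lower, 6.62%). They were 0 with only the 2 groups compared (3.99%), and 2 with the slope of listed (8.21%) or spliced length (7.91%) as covariate. With trends removed they were 4 for length (6.19%), 8 for length and GC (6.98%) and 3 for spliced length (6.42%). With 1 library left out they ran from 0 to 22. The 22 came without male KO replicate 3, where 613 of 14361 genes tested were higher in males. The cause of these shifts was not tested. The female difference in slope (0.30) was 0.39 over protein-coding genes with mean log2 CPM above 2 and 0.46 on spliced length.

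With the replicate number as a block the female count was 64 (24% of all genes called) and that of the mean of both sexes 0 (0.164%). That of males against females in KO mice was 0 (3.62%). Same-numbered samples did not deviate together (correlations -0.61 to 0.057, and 0 of 12 libraries went best with their own number). With so few libraries this cannot show whether the numbers pair samples. DESeq2 gave no adjusted p for Rpl34, Rps10, Rpl24 and Rpl29 in the difference between the sexes.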
